A study of Mus musculus with 14 samples.

Results

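The BCL2 family decides at the outer mitochondrial membrane whether a cell undergoes apoptosis, the regulated form of cell death. Anti-apoptotic members hold the effectors BAX and BAK in check. BH3-only members either bind and neutralise the anti-apoptotic members or activate the effectors, and the effectors then open the membrane and release cytochrome c. In the blood system, BIM limits the number of lymphoid and myeloid cells, BCL-XL keeps erythroid precursors and platelets alive, and MCL1 is needed by many blood cell types. Here the mRNAs of 10 members were followed by gene symbol: the anti-apoptotic *Bcl2*, *Bcl2l1* (BCL-XL) and *Mcl1*, the effectors *Bax* and *Bak1*, and the BH3-only genes *Bcl2l11* (BIM), *Bid*, *Bad*, *Bbc3* (PUMA) and *Pmaip1* (NOXA). They are 10 of the 49315 genes in the spleen count table, and each occurred once in both the spleen and the ovary table.

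Poly(A) RNA was sequenced from mouse spleens (4 wild type and 4 L2-fKO) and ovaries (3 wild type and 3 L2-fKO), 14 libraries in all and 1 animal per library. ZFP36L2 is an RNA-binding protein that destabilises mRNAs with AU-rich elements, and the comparison asks which mRNAs differ without it. L2-fKO animals (L2-cKO in the sample labels) were Zfp36l2-/-;CMV-Cre, made by deleting a loxP-flanked exon, and wild-type animals were littermate controls with both intact *Zfp36l2* copies that also carried the Tg.CMV-Cre transgene. The CMV promoter drives Cre in the early embryo, so the deletion is in all tissues and is not limited to a cell type, and most L2-fKO pups die before the second week of life. The spleens came from 2 female and 2 male wild-type and from 1 female and 3 male L2-fKO animals, described as age-matched pairs, and no age is given for single libraries. The spleen labels read "Spleen Organoid", which was taken to mean the organ. L2-fKO spleen 3 and L2-fKO ovary 1 were from the same animal.

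Each library held 39138010 to 45167464 counts in the spleen and 31052510 to 44270070 recovered reads in the ovary. For *Zfp36l2* the normalized counts were 7394, 4773, 6429 and 4362 in the wild-type spleens and 278, 326, 349 and 405 in the L2-fKO spleens (log2 fold change -4.08 ± 0.21 SE, adjusted p = 8.84e-06). In the ovary it had 4869, 4906 and 4745 in wild type and 758, 1011 and 1009 in L2-fKO (-2.40 ± 0.12, adjusted p = 0.000578). These gene counts also include the exons that were not deleted. In the spleen, all 8 megakaryocyte and platelet markers and all 8 neutrophil markers fell. The summed normalized count was 22881 to 46802 in wild type and 1158 to 1408 in L2-fKO for the first list and 163837 to 265125 and 10488 to 59879 for the second. No gene of the B cell, T cell, erythroid and cell cycle lists passed the test of edgeR in the spleen. In these lists 0, 0, 2 and 1 had an unadjusted p below 0.05, and DESeq2 called 0, 0, 1 and 0. Over all 16911 genes tested in the spleen these numbers were 4910 and 3291. Rises were seen for 2 of 7 macrophage, 1 of 5 endothelial and 2 of 6 fibroblast markers, beside 6.89% of all genes tested in the spleen, and these sums were highest in L2-fKO spleen 4. Pancreatic acinar markers summed to 21769.7, 6959, 1636 and 19078.5 in wild-type spleens 1 to 4 and to 1253 to 2169 in L2-fKO, so wild-type spleen 3 lay within the L2-fKO range. In the ovary, 1 of 3 tested T cell markers and 1 of 5 endothelial markers rose, beside 1.23% of all genes tested there. No gene of the other 11 marker lists passed in limma. In the macrophage, erythroid, oocyte, B cell, granulosa and pancreatic acinar lists 4, 3, 3, 2, 1 and 1 had an unadjusted p below 0.05. DESeq2 called 3, 2, 1, 0, 1 and 1 of them, and the remaining lists had none by either count. Over all 18504 genes tested in the ovary these numbers were 3114 and 1116. In bulk tissue, fewer cells of a type and less RNA per cell cannot be told apart.

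The 7-mer UAUUUAU, which has the 5-mer AUUUA inside it, is a sequence that ZFP36L2 binds. In the longest 3′UTR of GENCODE mouse release 21 (GRCm38), read on the transcript strand, *Pmaip1* held 4 copies of UAUUUAU, *Mcl1* 3, *Bcl2* 2, *Bcl2l11* 2 and *Bcl2l1* 1, and *Bax*, *Bak1*, *Bbc3*, *Bid* and *Bad* held none. That is 5 of 10 members, beside 29.5% of the 14227 spleen-tested genes and 29.2% of the 15453 ovary-tested genes with a 3′UTR. The copies are spread over 3′UTRs of unequal length, 5086 bases in *Bcl2*, 4218 in *Bcl2l11*, 2353 in *Mcl1*, 2192 in *Pmaip1* and 1477 in *Bcl2l1*, beside a median of 1331 bases over the spleen-tested genes. When the isoform with the median 3′UTR length was taken for each gene, only *Mcl1* (3 copies) and *Pmaip1* (4 copies) kept any. The copies of *Bcl2*, *Bcl2l1* and *Bcl2l11* therefore depend on the isoform taken. For *Bcl2*, with 2 annotated 3′UTR isoforms, this was the shorter, of 1942 bases. The first copy in its longest 3′UTR starts at base 252, so the 2 isoforms differ in more than length. AUUUA alone was found 15 times in *Bcl2*, 8 times in *Mcl1*, 6 times in *Bcl2l11*, 4 times in *Pmaip1*, 2 times in *Bak1*, and 1 time each in *Bcl2l1* and *Bad*, and 69.9% of spleen-tested genes had at least 1. A match describes the letters in a 3′UTR and does not show a bound site.

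The sites of *Bcl2l11*, the member that differed most clearly in the spleen, and of *Mcl1*, whose copies lie in its only annotated 3′UTR, are printed 5′ to 3′ as RNA, with 10 bases on either side and the 7-mer in capitals. Those of *Bcl2l11* start at bases 2791 and 3025 of its longest 3′UTR, on the plus strand of chromosome 2 at chr2:128161110-128161136 and chr2:128161344-128161370 with the flanks. Those of *Mcl1* start at bases 70, 1766 and 1791, on the plus strand at chr3:95660883-95660909, chr3:95662579-95662605 and chr3:95662604-95662630.
*Bcl2l11* site 1: auauuuugacUAUUUAUuagauuagaa
*Bcl2l11* site 2: agauguuguaUAUUUAUuuuccgcuua
*Mcl1* site 1: aaaacaugugUAUUUAUgaagguggac
*Mcl1* site 2: uguaccugugUAUUUAUccuugaucau
*Mcl1* site 3: auaguuugcuUAUUUAUguuuaacucu

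In the spleen, *Bcl2l11* and *Bid* fell in L2-fKO and the other 8 members did not pass the test. *Bcl2l11* was at 53.0% of its wild-type mean and *Bid* at 71.3%. Both encode BH3-only proteins that promote apoptosis, BIM as a direct activator and BID as the link from death receptor signalling to mitochondria. No member passed in the upward direction, and neither of these reached the absolute log2 fold change of 1. Over all 16911 genes tested in the spleen, 6.51% fell and 6.89% rose at an adjusted p below 0.05, and 6.01% also passed the fold limit in either direction. The median log2 fold change of the 10 members was -0.05, beside -0.02 over all genes tested. The rule for the members did not use these values, but the members were chosen with earlier results of these data known.

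**Figure D1:**
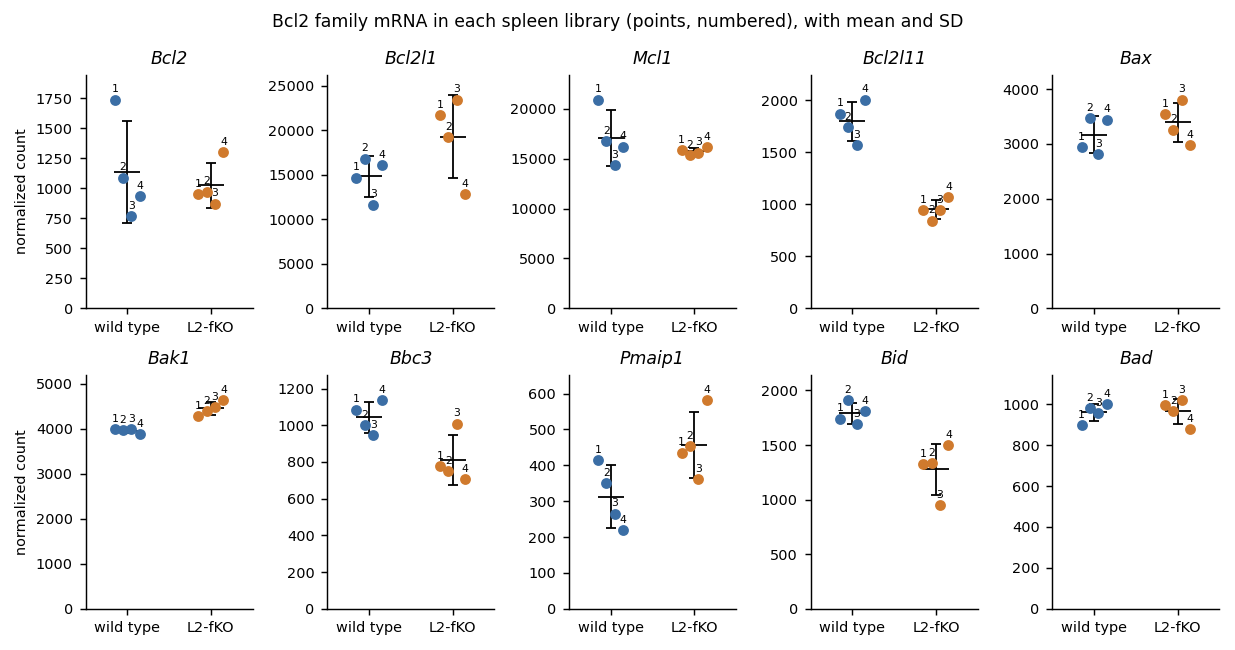
Normalized count (vertical axis, from 0) of each of the 10 members in the 4 wild-type and 4 L2-fKO spleens; numbered points are libraries, horizontal marks are means and bars are SDs. *Bcl2l11* is at 1567 to 2004 in wild type and 843 to 1068 in L2-fKO, and *Bcl2* is highest in wild-type spleen 1.

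*Bcl2l11* lies on chromosome 2 of GRCm38 from 128126038 to 128162547 on the plus strand, and its counts include the 3′UTR that holds the sites above. Wild-type spleens 1 to 4 held 1870.1, 1739, 1567 and 2004 normalized counts. In L2-fKO spleens 1 to 4 it had 947, 843, 945 and 1068. The lowest wild-type library was above the highest L2-fKO library, a separation shown by 20.4% of all genes tested in the spleen and by 3 of the 10 members (*Bcl2l11*, *Bid* and *Bak1*). The means were 1795 ± 187 (SD, n = 4) and 951 ± 91.9 (SD, n = 4), with a log2 fold change of -0.92 ± 0.12 SE and an adjusted p of 0.00117 (quasi-likelihood test of edgeR, Benjamini-Hochberg adjusted). It was 239th of 16911 genes by p. In all 15 alternatives the fall passed the test, with log2 fold changes from -0.98 to -0.86 and adjusted p-values up to 0.00905, including -0.97 in the male libraries only. The neutrophil and the megakaryocyte and platelet marker sums fell in the same libraries, and their part in the fall of *Bcl2l11* was not tested.

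*Bid*, on chromosome 6 from 120891930 to 120916853 on the minus strand, had 1741, 1913, 1693 and 1809 in the wild-type spleens. It had 1323, 1336, 948 and 1497 in the L2-fKO spleens, with the lowest value in L2-fKO spleen 3, the only female of its group. The groups did not overlap, and the log2 fold change was -0.49 ± 0.14 SE (adjusted p = 0.0477 by the same test). That p lies just under the limit, and 8 of 15 alternatives ended the call. Over the 15 the log2 fold change ran from -0.62 to -0.36 and the adjusted p from 0.0124 to 0.124, and those that ended the call included no filter on low counts (0.0604) and the male libraries only (0.055). Of the single libraries, leaving out wild-type spleen 1 (adjusted p = 0.0743), 2 (0.124) or 4 (0.119) ended the call, as did leaving out L2-fKO spleen 1 (0.108), 2 (0.0993) or 3 (0.0641). The neutrophil marker sum was also lowest in L2-fKO spleen 3, at 10488, beside 45732 to 59879 in the other 3, and its part in the value of *Bid* was not tested. *Bid* shares 628 bases of exon with *Bcl2l13* on the opposite strand, and the counting was by strand.

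Of the other BH3-only genes in the spleen, *Bbc3* and *Pmaip1*, both induced by p53 in many cells, differed in opposite directions without passing. *Bbc3* had 1085, 1000.1, 946 and 1138 in wild type and 778, 749.9, 1009 and 706 in L2-fKO. Only L2-fKO spleen 3 lay within the wild-type range, and the log2 fold change was -0.36 ± 0.14 SE (adjusted p = 0.108). Without L2-fKO spleen 3 it was -0.48 (adjusted p = 0.0332), so the call depends on that library. In the male libraries only, which leaves out wild-type spleens 1 and 3 as well, it was -0.52 (adjusted p = 0.0383). With sex as a covariate and all libraries kept it was -0.34 (adjusted p = 0.141). *Pmaip1* had 415, 351, 265 and 219 in wild type and 435, 453, 361 and 582 in L2-fKO, on 217 to 683 reads per library. The groups overlapped through L2-fKO spleen 3, which was below wild-type spleen 1, and the log2 fold change was 0.55 ± 0.22 SE (adjusted p = 0.134, and 0.0691 to 0.301 over the alternatives). *Bad*, whose product sensitises cells by binding BCL2 and BCL-XL, had 899.7 to 999.6 in wild type and 880.0 to 1021 in L2-fKO, a log2 fold change of 0.01 ± 0.10 SE.

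The effectors did not pass the test in the spleen. *Bak1* had 3994, 3975, 4000.4 and 3880.0 in wild type and 4288, 4402, 4483 and 4646 in L2-fKO. These groups did not overlap, because the wild-type spread was only 1.4% of the mean, but the difference was small (log2 fold change 0.17 ± 0.08 SE) and did not pass (adjusted p = 0.207). *Bax* had 2949.9, 3469.9, 2809.7 and 3444 in wild type and 3543, 3262, 3809.6 and 2981 in L2-fKO. The log2 fold change was 0.10 ± 0.12 SE over all libraries and -0.08 in the male ones only, so no direction is given. *Bax* shares 192 bases of exon with *Gm45808* on the same strand, and reads there could be split or dropped by the counting.

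The anti-apoptotic members did not pass either, and 2 of them varied widely between spleens. *Bcl2*, a survival gene of mature lymphocytes, had 1739, 1089, 768 and 937 in wild type and 949, 974, 873 and 1301 in L2-fKO. Its wild-type SD was 37.5% of the mean, the highest of the 10 members, and the log2 fold change was -0.15 ± 0.24 SE (adjusted p = 0.729). The highest library of each group was also the one with the highest B cell marker sum, 68924 in wild-type spleen 1 and 37804 in L2-fKO spleen 4. The T cell marker sum was highest in the same libraries, at 9286.4 and 9529.5. The part of these cell types in the *Bcl2* values was not tested. Without wild-type spleen 1 the log2 fold change of *Bcl2* turned to 0.14. *Bcl2l1* had 14694, 16837, 11671 and 16146 in wild type and 21698, 19246, 23468 and 12855 in L2-fKO. L2-fKO spleens 1 to 3 were above every wild-type library and L2-fKO spleen 4 was below 3 of the 4. The erythroid marker sum was also highest in L2-fKO spleens 1 to 3 and lowest in 4. It was 694586.5 in L2-fKO spleen 1, 667140.3 in 2 and 888761 in 3 against 437585 in 4 and 451282 to 544538 in wild type. Its 10 markers had log2 fold changes from -0.39 to 0.67 and none passed in edgeR, so the sum joins estimates of both directions. The part of the erythroid sum in the *Bcl2l1* values was not tested. The log2 fold change of *Bcl2l1* was 0.38 ± 0.20 SE (adjusted p = 0.23), and without L2-fKO spleen 4 it was 0.54 with an adjusted p of 0.0327. *Mcl1*, which encodes a short-lived protein, had 20900.2, 16723, 14342 and 16202 in wild type and 15839.8, 15377, 15599 and 16183 in L2-fKO (log2 fold change -0.11 ± 0.13 SE, adjusted p = 0.6).

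In the ovary no member passed the test (limma on log2(normalized count + 1) with Benjamini-Hochberg adjustment). Only *Pmaip1* had an unadjusted p below 0.05, beside 3114 of all 18504 genes tested, and its L2-fKO mean was 3.94-fold the wild-type mean. DESeq2 called 1 member, *Pmaip1*, and edgeR called 0 on the recovered reads. Over all genes they called 1116 and 299. In limma, 1.23% of the 18504 genes tested in the ovary rose and 0.351% fell, and 0.957% also passed the fold limit. The median log2 fold change of the 10 members was -0.06, beside 0.00 over all genes tested.

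**Figure D2:**
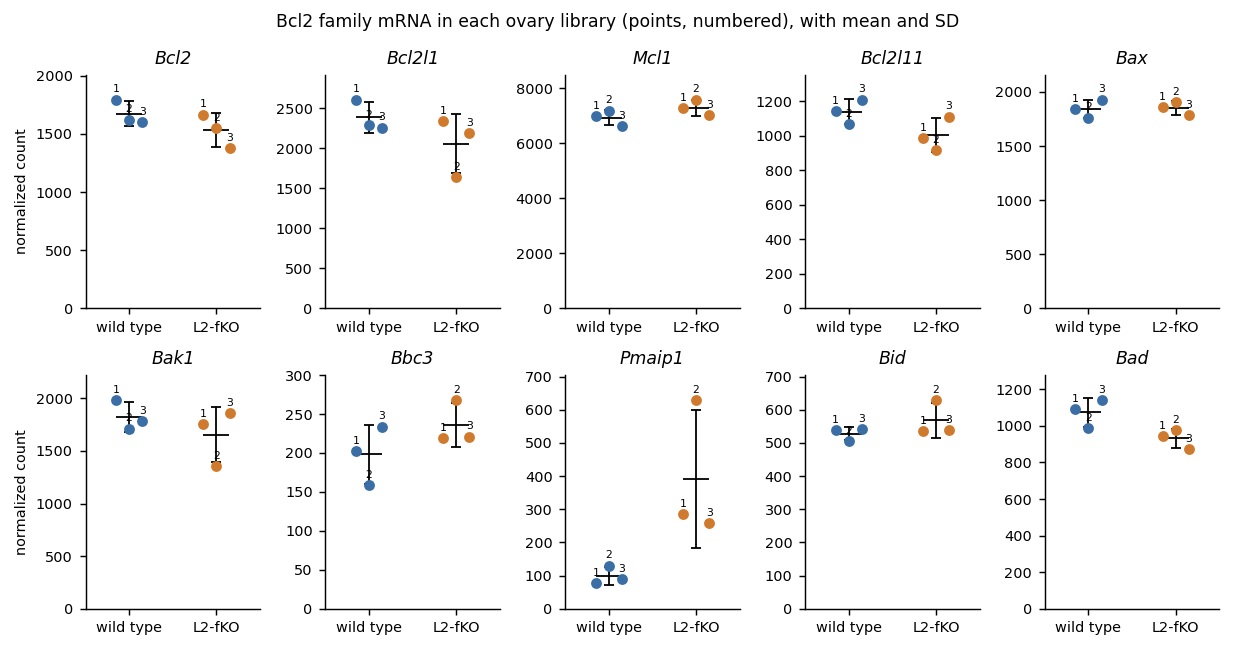
Normalized count (vertical axis, from 0) of each of the 10 members in the 3 wild-type and 3 L2-fKO ovaries; numbered points are libraries, horizontal marks are means and bars are SDs. *Pmaip1* is at 77.9 to 130.4 in wild type and 258 to 629.9 in L2-fKO, and the groups of every other member except *Bad* overlap.

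*Pmaip1* encodes NOXA, a small BH3-only protein that binds MCL1, and it had the most UAUUUAU copies of the 10 members. Its normalized counts were 77.9, 130.4 and 89.9 for the wild-type ovaries and 285, 629.9 and 258 in the L2-fKO ovaries. The lowest L2-fKO ovary was above the highest wild-type ovary, and 25.2% of all genes tested in the ovary were separated in this way, beside 2 of the 10 members (*Pmaip1* and *Bad*). The means were 99.4 ± 27.5 (SD, n = 3) and 391 ± 207 (SD, n = 3), with a log2 fold change of 1.88 ± 0.36 SE on the log2(normalized count + 1) scale and an adjusted p of 0.0554. The lowest library held 64 reads of the gene. L2-fKO ovary 2 carried the widest part of the spread, with the same number of *Pmaip1* and *Bid* reads (613), and without it the log2 fold change was 1.48 and the adjusted p 0.0317. That ovary also stood apart in its markers. The granulosa sum was 37137 there, 73397 and 79534 in the other L2-fKO ovaries and 80017 to 88663 in wild type. The theca and interstitial sum was 25917 there and 37345.5 to 49895.6 in all other ovaries, the cell cycle sum 29666 there and 37702 to 41704 in the others, and the part of these in the *Pmaip1* value was not tested. Over all 11 alternatives the log2 fold change ran from 1.48 to 2.12 and the adjusted p from 5.32e-06 (DESeq2) to 0.214 (without wild-type ovary 1).

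The other BH3-only genes differed less in the ovary. *Bad* had 1093, 989 and 1142 in wild type and 943, 976 and 875 in L2-fKO, which did not overlap, with a log2 fold change of -0.21 ± 0.09 SE (adjusted p = 0.312). *Bcl2l11* had 1143, 1069.6 and 1210.2 in wild type and 986, 919 and 1111 in L2-fKO, a log2 fold change of -0.18 ± 0.10 SE (adjusted p = 0.396). L2-fKO ovary 3 lay within the wild-type range. *Bid* had 538, 506 and 541 against 537, 629.9 and 539 (0.10 ± 0.10 SE), and *Bbc3*, read from 166 to 261 reads, had 202, 159 and 234 against 219, 268 and 221 (0.26 ± 0.18 SE).

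The anti-apoptotic members and effectors of the ovary had log2 fold changes between -0.23 and 0.07, and the groups of each overlapped. *Bcl2* had 1795, 1624 and 1601 in wild type and 1665, 1553 and 1376 in L2-fKO (-0.13 ± 0.09 SE). *Bcl2l1* had 2609, 2293 and 2259 against 2338, 1638 and 2193 (-0.23 ± 0.14 SE), with L2-fKO ovary 2 lowest. *Mcl1* was at 6634 to 7184 in wild type and 7008 to 7583 in L2-fKO (0.07 ± 0.07 SE). *Bak1* had 1985, 1711 and 1782 against 1753, 1356 and 1857 (-0.15 ± 0.13 SE). *Bax* was at 1762 to 1929 in wild type and 1784 to 1907 in L2-fKO (0.01 ± 0.07 SE).

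**Figure D3:**
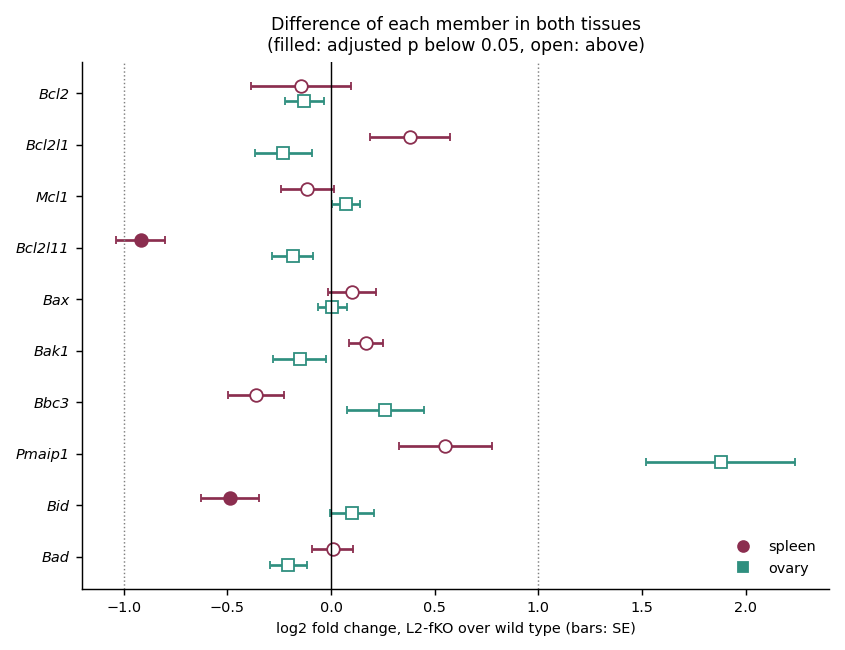
Log2 fold change of L2-fKO over wild type (horizontal axis) with its SE for each member, circles for the spleen (4 against 4) and squares for the ovary (3 against 3); filled marks have an adjusted p below 0.05 and dotted lines mark the fold limit of 1. *Bcl2l11* (-0.92) and *Bid* (-0.49) are filled in the spleen, and *Pmaip1* lies at 1.88 in the ovary.

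Whether the difference of a member depended on tissue was tested with an interaction term in edgeR on spleen counts and recovered ovary reads, over 18580 genes, of which 5.22% passed. Of the 10 members, *Bcl2l11* passed. The difference of its log2 fold changes, spleen minus ovary, was -0.71 ± 0.17 SE (adjusted p = 0.0281), and without L2-fKO spleen 3, which shares its animal with an ovary library, it was -0.71 ± 0.18 SE (adjusted p = 0.0393). The difference for *Pmaip1* was -1.39 ± 0.44 SE (adjusted p = 0.0827) and for *Bid* -0.57 ± 0.19 SE (adjusted p = 0.105). *Bbc3* had -0.59 ± 0.23 SE (adjusted p = 0.167), *Bcl2l1* 0.62 ± 0.28 SE (adjusted p = 0.238) and *Bak1* 0.34 ± 0.15 SE (adjusted p = 0.218). These 5 members are therefore not shown to differ between the tissues. The differences for *Bcl2*, *Mcl1*, *Bax* and *Bad* were between -0.16 and 0.24. The 2 tissues were deposited as separate tables, so tissue and table cannot be told apart. The spleens came from both sexes and the ovaries from females only, and the interaction fit had no term for sex.

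Levels were compared between members only after division by the length of the merged exons, as the normalized count per kb of exon in wild type. In the spleen the order was *Mcl1* (mean 4986), *Bcl2l1* (3235), *Bax* (2010.5), *Bak1* (1646), *Bid* (504), *Bbc3* (491), *Bad* (375), *Bcl2l11* (224), *Bcl2* (124) and *Pmaip1* (114). The ranges of the 4 libraries overlapped between the neighbours *Bid* and *Bbc3* and between *Bcl2* and *Pmaip1*, and not between the other neighbours. In the ovary, whose values have their own scale, the order was *Mcl1* (2028), *Bax* (1170.3), *Bak1* (759), *Bcl2l1* (520.5), *Bad* (420.1), *Bcl2* (183), *Bid* (149), *Bcl2l11* (142), *Bbc3* (93.3) and *Pmaip1* (36.4). There the ranges of *Bid* and *Bcl2l11* overlapped and those of other neighbours did not. *Mcl1* was first and *Pmaip1* last in both tissues, whereas *Bcl2l1* was behind *Mcl1* alone in the spleen and behind *Bax* and *Bak1* too in the ovary. In the L2-fKO spleens *Bcl2l11* (118 per kb) came to lie beside *Bcl2* (112 per kb). In the L2-fKO ovaries *Pmaip1* ran from 94.6 to 231 per kb, with the highest value in L2-fKO ovary 2, and overlapped the ranges of *Bcl2l11* (114 to 138 per kb) and *Bbc3* (103 to 126 per kb).

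**Figure D4:**
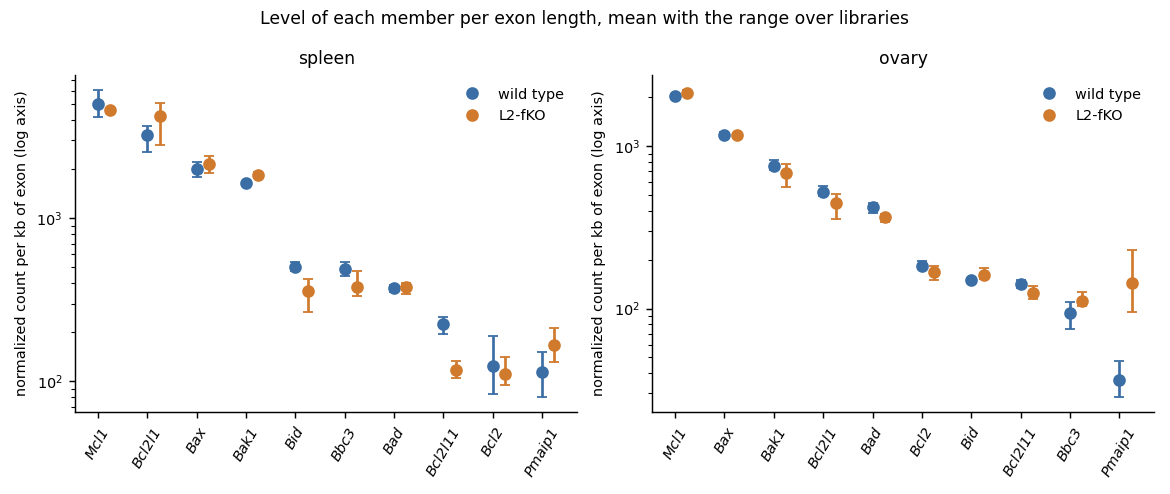
Normalized count per kb of exon (vertical log axis) of each member in the spleen (left) and ovary (right), ordered by the wild-type mean; points are means and bars span the lowest to the highest library. *Mcl1* is first (4986 in the spleen and 2028 in the ovary) and *Pmaip1* last in wild type in both tissues.

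Ratios of the levels per kb within a library, computed after the values had been seen and given as a description, put the members side by side. *Bcl2l11* per *Mcl1* was 0.0381, 0.0443, 0.0465 and 0.0527 in the wild-type spleens and 0.0254, 0.0233, 0.0258 and 0.0281 in the L2-fKO spleens. All 4 L2-fKO ratios were under the lowest wild-type ratio. In the ovary the same ratio was 0.0634 to 0.0777 in wild type and 0.0516 to 0.0675 in L2-fKO, with overlap. *Bcl2l11* per *Bcl2l1* in the spleen was 0.0590 to 0.0767 in wild type and 0.0230 to 0.0474 in L2-fKO, whereas *Bcl2l11* per *Bcl2* overlapped, at 1.2265 to 2.44 and 0.936 to 1.2341. *Pmaip1* per *Mcl1* was 0.0169 to 0.0262 in the wild-type spleens and 0.0289 to 0.0450 in the L2-fKO spleens. The same ratio was 0.0140 to 0.0227 in the wild-type ovaries and 0.0461 to 0.1039 in the L2-fKO ovaries. The classical ratio of *Bax* to *Bcl2* was 9.86 to 21.4 in wild type and 13.3 to 25.3 in L2-fKO in the spleen, and 5.96 to 6.999 and 6.49 to 7.54 in the ovary, so the groups overlapped in both.

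Genes whose profile over the 8 spleens was nearest to that of *Bcl2l11* were found by the root mean square difference of log2 CPM after centring each gene, among 16910 others. They were *Gm11944* (0.093), *Tob1* (0.097) and *Ctla2b* (0.098), with log2 fold changes of -0.98, -0.82 and -0.97, all of which passed the test. For *Bid* they were *Tspan2* (0.069), *Plp2* (0.072) and *Plaur* (0.078), with log2 fold changes of -0.44, -0.39 and -0.47, none of which passed the test. A gene near by this measure must have a similar fold change, so the likeness of the fold changes is not a further result.

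The wider apoptosis pathway was followed in 9 lists of 58 genes, chosen with earlier results known. In the spleen 55 were tested, of which 6 rose and 3 fell, beside 6.89% and 6.51% of all genes tested, and the median log2 fold change was 0.03. Of the other anti-apoptotic members, *Bcl2l2* (BCL-W) was at 636 to 776 in wild type and 976 to 1026 in L2-fKO and rose by 0.50 ± 0.11 SE on the log2 scale, and the other 3 tested did not pass. Of the other BH3-only and effector genes, *Bok*, an effector related to *Bax* and *Bak1*, rose from 739 ± 43.4 to 951 ± 53.3 (SD, n = 4), by 0.36 ± 0.10 SE, with an adjusted p of 0.0424. Of the atypical relatives, *Bcl2l12* fell from 725 ± 40.9 to 480.0 ± 48.1 (SD, n = 4), and 5 did not pass. None of the 8 mitochondrial partners and released factors and none of the 4 genes of MCL1 protein turnover passed (edgeR's quasi-likelihood test, adjusted). At an unadjusted p below 0.05 there were 1 and 2 of them, and DESeq2 called 1 and 0. Over all 16911 genes tested in the spleen, 4910 had an unadjusted p below 0.05 and DESeq2 called 3291.

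*Cdkn1a*, which encodes the cell cycle inhibitor p21, and *Mdm2*, which encodes the ligase that degrades p53, were the 2 of 9 upstream regulators that rose in the spleen. *Cdkn1a* was at 328 to 525 in wild type and 1093 to 2085 in L2-fKO, with a log2 fold change of 2.02 ± 0.22 SE (adjusted p = 0.000462), the only gene of the 9 lists that passed the fold limit. *Mdm2* was at 2329.7 to 2619 and 2988 to 4455 (0.62 ± 0.13 SE, adjusted p = 0.0118). *Bbc3* and *Pmaip1*, described above as induced by p53 in many cells, did not pass and differed in opposite directions. The activity of p53 was not tested. Of the death receptor pathway, *Ripk1*, a kinase at the receptor complex, rose by 0.95 ± 0.17 SE (adjusted p = 0.00589) and the receptor gene *Tnfrsf1a* by 0.53 ± 0.12 SE (adjusted p = 0.0223), and 8 others did not pass. *Birc2*, which encodes the ubiquitin ligase cIAP1, fell from 2204.5 ± 79.2 to 1556 ± 84.8 (SD, n = 4; -0.50 ± 0.09 SE, adjusted p = 0.00684), the only 1 of 5 inhibitors of apoptosis to pass. *Casp6*, an executioner caspase, fell by 0.43 ± 0.11 SE on the log2 scale (adjusted p = 0.0245), and 5 other genes of the apoptosome and caspases did not pass.

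The calls of *Cdkn1a*, *Ripk1*, *Birc2* and *Bcl2l12* held in all 15 alternatives. In the male libraries only, *Mdm2* (adjusted p = 0.0714) and *Tnfrsf1a* (0.0558) lost their calls. *Bcl2l2* lost its call without wild-type spleen 4 (0.059), and *Tnfrsf1a* also without wild-type spleen 4 (0.0742) or L2-fKO spleen 2 (0.0551). *Casp6* did not pass once wild-type spleen 2 (adjusted p = 0.0793), wild-type spleen 4 (0.0919) or any of L2-fKO spleens 1 (0.0669), 2 (0.0914) and 3 (0.0535) was left out, nor without a filter on low counts (0.0834). *Bok* lost its call in 11 of the 15 alternatives, with adjusted p-values up to 0.127. These were leaving out any library other than L2-fKO spleen 4, no filter on low counts, sex as a covariate, the male libraries only and the replicate block.

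In the ovary 52 of the 58 pathway genes were tested, and 1 passed, upward, beside 1.23% of all genes tested that rose and 0.351% that fell. Of these 52, 7 had an unadjusted p below 0.05 and DESeq2 called 4, beside 3114 and 1116 of all 18504 genes tested. The groups of 13 did not overlap, beside 25.2% of all genes tested there. *Tnfsf10*, which encodes the death ligand TRAIL, was at 277 to 293 in wild type and 510.2 to 643 in L2-fKO, with a log2 fold change of 1.04 ± 0.12 SE (adjusted p = 0.012), and its call was lost without wild-type ovary 1 (adjusted p = 0.0671), 2 (0.0708) or 3 (0.0725). The T cell marker sum was higher too (146 to 165 in wild type and 302 to 410.0 in L2-fKO, with 3 of 7 markers in the table). These 3 markers had log2 fold changes from 0.01 to 2.12, and 1 of them passed. The macrophage sum (2139.6 to 2695 and 3027 to 3904) and the endothelial sum (11718.5 to 12551.5 and 14103 to 17128) were likewise higher in all 3 L2-fKO ovaries, and the part of these cell types was not tested. The median over the 52 genes was -0.03. Of the 2 upstream regulators that rose in the spleen, *Cdkn1a* was also higher in every L2-fKO ovary but did not pass. It was at 267 to 341 in wild type and 427 to 718 in L2-fKO (0.81 ± 0.22 SE, adjusted p = 0.126 in limma). The groups of *Mdm2* overlapped, at 2445 to 2472 and 2417 to 2717 (0.06 ± 0.07 SE). *Bcl2l10*, an anti-apoptotic member expressed in oocytes, was singled out after its values were seen. It was at 2261 to 2928 in wild type and 293 to 1066 in L2-fKO (-2.03 ± 0.42 SE, adjusted p = 0.0687), and passed with DESeq2 (adjusted p = 0.0108), with the replicate block (0.0282), without L2-fKO ovary 1 (0.0402) and without L2-fKO ovary 2 (0.00962). The oocyte marker sum was 120757 to 122706 in wild type and 100187 to 126690.5 in L2-fKO. Its 8 markers had log2 fold changes from -1.25 to 1.0, so the sum joins estimates of both directions. None passed in limma, 3 had an unadjusted p below 0.05 and DESeq2 called 1.

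**Figure D5:**
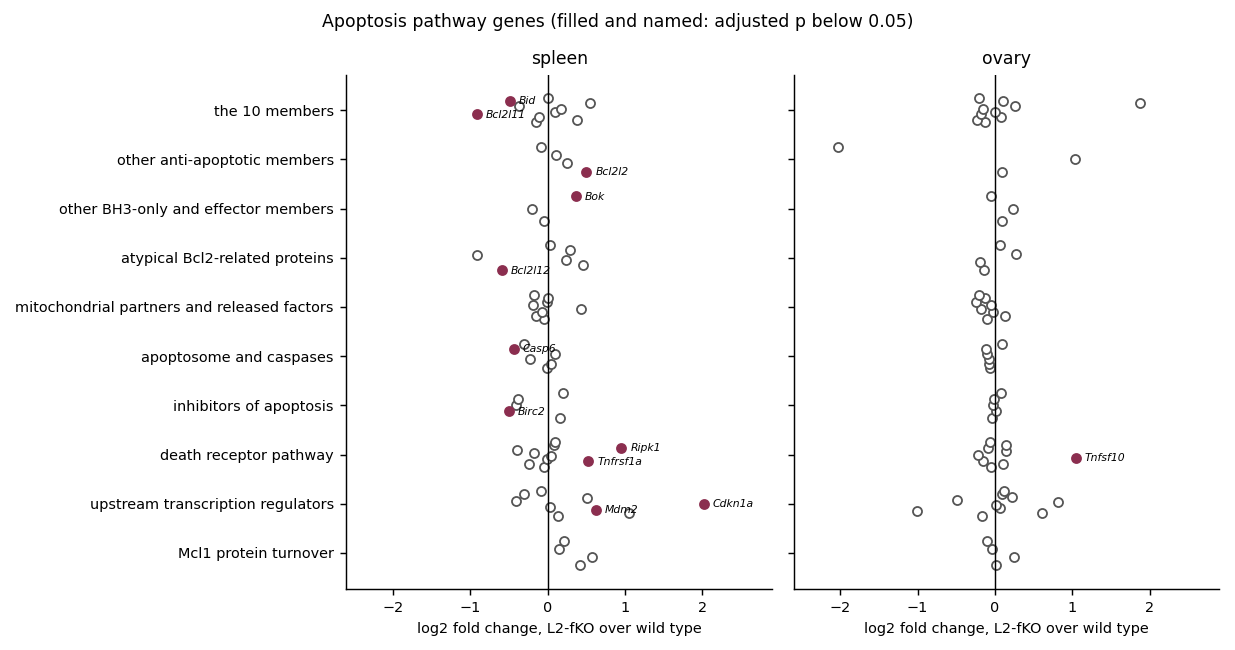
Log2 fold change of L2-fKO over wild type (horizontal axis) of the 10 members and the genes of 9 pathway lists (rows) in the spleen (left) and ovary (right); each point is a gene, and filled, named points have an adjusted p below 0.05. In the spleen *Cdkn1a* lies farthest out at 2.02, and in the ovary *Tnfsf10* at 1.04 is the only filled point.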

How the data were processed

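Poly(A) RNA libraries were made with the NEBNext Ultra II kit from 8 spleens and 6 ovaries. The authors used Trimmomatic 0.36 for trimming, STAR 2.5.2b for mapping to GRCm38, and featureCounts (Subread 1.5.2) for strand-specific counting of uniquely mapped exon reads. The methods state this for the spleen, and the ovary processing is not given separately in the sources used here. The deposited spleen values are raw counts of 49315 genes. The deposited ovary values are normalized signal values, counts divided by 1 size factor per library, for 18603 genes, and 100.0% of them gave whole reads within 0.001 when multiplied back. The authors' fold changes and p-values in both tables were not used, nor was their normalized spleen table.

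Spleen counts were tested with edgeR 4.0.16 (quasi-likelihood, TMM) where 4 or more libraries had 10 or more counts of a gene. Ovary values were tested with limma 3.58.1 with an intensity trend on log2(value + 1), for genes with at least 10 in at least 3 libraries. The interaction was fitted with edgeR on counts and recovered reads, for genes with at least 10 in at least 3 libraries. All p-values were adjusted by Benjamini-Hochberg over all genes tested. "Rose" and "fell" mean an adjusted p below 0.05, and the fold limit is an absolute log2 fold change above 1. Spleen normalized counts are counts over the TMM-scaled library size times the mean size, and ovary values are as deposited. Exon lengths and 3′UTRs are from GENCODE mouse release 21. Scripts ran in R 4.3.3 and Python 3.11.15, with DESeq2 1.42.0 as an alternative, and the fits were tested on simulated data.

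The members and gene lists were chosen with earlier results of these data known. Named are the 10 members, *Zfp36l2*, pathway genes with an adjusted p below 0.05 in a tissue (at most 12 per tissue), the 3 genes nearest in profile to each member that passed in the spleen, and *Bcl2l10*. The labels give replicate number 3 to 2 wild-type spleens, and the male was taken as wild-type spleen 4. Replicates of a group differed by more than counting error, the chi-square divided by its degrees of freedom being 7.86 to 236 in the spleen and 11.94 to 57.5 in the ovary. Alternatives were another normalization, test, filter or pseudocount, sex as a covariate, male libraries only, a replicate block, and leaving out each library.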

Additional observations from a re-analysis of the deposited data

Results flagged for a closer look

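The log2 fold change of *Bcl2l11* differed between the tissues by an interaction test in edgeR, with a difference, spleen minus ovary, of -0.71 (adjusted p = 0.0281). It was lower in 4 of 4 L2-fKO spleens than in any wild-type spleen, and lower in 2 of 3 L2-fKO ovaries than in any wild-type ovary.

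L2-fKO spleen 4 was flagged against the other 3 L2-fKO spleens by Dixon's criterion in the ratio of *Bcl2l11* to *Bcl2l1* levels per kb (0.0474). It was also flagged in the summed normalized counts of the macrophage (78099), endothelial (24415) and fibroblast (74433) marker lists. Chance gives such a value in about 1 of 20 groups, and 76 spleen groups were examined. About as many flags as these are therefore expected by chance, and the library is not shown to be unusual. Without that library *Bcl2l11* had a log2 fold change of -0.97 (adjusted p = 0.000991) and *Bid* -0.57 (adjusted p = 0.0215).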

How the results depend on the processing

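The fall of *Bcl2l11* in the spleen passed the test in all 15 alternatives, and its interaction with tissue passed in the alternative run. The count of spleen members that passed was 2, and became 1 without a filter on low counts (*Bcl2l11* alone) and 1 to 3 when 1 library was left out. In the ovary it was 0, and became 1 (*Pmaip1*) with DESeq2 and 1 with the replicate block, and 0 to 1 with 1 library left out. Members with UAUUUAU numbered 5, or 2 with the 3′UTR of median length. In the male spleens the log2 fold changes reversed to 0.086 for *Bcl2*, -0.084 for *Bax* and -0.065 for *Bad*. With 1 library left out they ran from -0.30 to 0.14 for *Bcl2* and -0.021 to 0.054 for *Bad* in the spleen, and from -0.027 to 0.038 for *Bax* in the ovary, so these 3 have no direction.

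Over all genes, 1136 to 3112 passed in the spleen (2267 with all libraries) when 1 library was left out, with 1281 without wild-type spleen 2, 1136 without 4, 1235 without L2-fKO spleen 1 and 1342 without 2. In the ovary 34 to 423 passed (292 with all), with 53, 34 and 43 without wild-type ovaries 1, 2 and 3 and 169 and 170 without L2-fKO ovaries 1 and 3, and 32 to 198 also passed the fold limit (177 with all). DESeq2 on recovered ovary reads called 1116 genes, and 407 with the fold limit. The causes were not tested. With the label numbers as a replicate block, 3487 genes passed in the spleen and 539 in the ovary (268 with the fold limit). In the spleen, label number 4 belongs to L2-fKO spleen 4 alone, so the block fit takes no genotype difference from that library. The log2 fold change of *Bcl2l11* was -0.975 with the block and -0.974 without that library. Deviations of same-numbered libraries correlated at -0.17 to 0.17 in the spleen and 0.08 to 0.47 in the ovary, which does not show that the numbers pair animals, and in neither tissue did every library correlate best with its own number. Of the members in the ovary, *Pmaip1* had the largest SE of the log2 fold change (0.36), on 64 to 613 reads per library. Its SE was 0.239 without L2-fKO ovary 2 and 0.184 with the replicate block. The part of read number in this precision was not tested.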
